A study of Mus musculus with 10 samples.

Results

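The regulatory maturation genes are 8 genes that dendritic cells (DCs) switch on as they mature and leave a tissue: Fscn1, Marcksl1, Aldh1a2, Ido1, Il4i1, Cd200, Cd83 and Samsn1. They were taken by name, with earlier results of these data known. Of the 8, 7 had a probe set with a single gene symbol on the array, and these 7 were among the 13371 genes tested, out of 22180 genes with such a probe set. The only probe set listing Il4i1 carried 3 symbols (Nup62, Il4i1 and Il4i1b), so no value was given to that gene.

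Expression was measured on 10 Affymetrix Mouse Gene 2.0 ST arrays of splenic CD11c+ DCs, which had been pulled out with magnetic beads 4 h after the mice received 100 µg CpG or vehicle. The groups were C3ar1-/-C5ar1-/- mice, labelled DRKO, after CpG (n = 3), wild-type (WT) mice after CpG (n = 3), DRKO mice after vehicle (n = 2) and WT mice after vehicle (n = 2), the last 2 groups being called unstimulated. C3ar1 and C5ar1 are the receptors of the complement fragments C3a and C5a, and the labels give both as -/- without naming a cell type or promoter for the deletion. CpG is unmethylated DNA sensed by the endosomal receptor Tlr9. The labels give neither the age nor the sex of the mice, and do not say whether each array came from 1 mouse or from pooled mice, so the spread between arrays may in part be technical.

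A maturing DC takes up less antigen, rebuilds its actin skeleton and moves to T cell areas. Alongside costimulatory molecules it makes products that restrain T cells. Fscn1 encodes fascin, which bundles actin filaments in the veils of mature DCs, and Marcksl1 encodes a small actin-binding substrate of protein kinase C. Aldh1a2 makes retinoic acid from retinal, a signal for gut homing and regulatory T cells. Ido1 opens the indole ring of tryptophan, and Il4i1 is a secreted amino acid oxidase. Cd200 is a surface ligand of the inhibitory receptor CD200R. Cd83 encodes a surface protein that slows the loss of MHC class II and Cd86 by opposing the ligase March1. Samsn1 encodes an adaptor with SH3 and SAM domains that restrains signalling in B cells.

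The isolates expressed marker genes of DCs and also of other cells, the latter at levels that differed between arrays. The integrin gene Itgax lay at 11.2 to 11.9 in the 5 DRKO arrays and at 10.7 to 11.8 in the 5 WT arrays (log2 intensity), and H2-Aa, an MHC class II gene, at 12.91 to 13.13 in DRKO and at 12.86 to 13.05 in WT arrays. Flt3 lay at 10.2 to 10.6 in DRKO and at 9.8 to 10.4 in WT arrays, and Zbtb46 at 7.6 to 8.2 in DRKO and at 7.4 to 8.1 in WT arrays. Array medians over all probe sets ran from 5.50 to 5.56. C3ar1 measured 5.27 to 5.64 in DRKO and 5.80 to 6.59 in WT arrays, and C5ar1 measured 4.42 to 4.99 in DRKO and 5.51 to 7.32 in WT arrays, without overlap. The mean of 13 neutrophil markers was 5.49 to 7.01 in DRKO arrays after CpG against 6.94 to 8.52 in WT arrays after CpG. The mean of 14 splenic macrophage markers ranged from 8.25 to 10.10 in DRKO arrays after CpG and from 9.79 to 10.01 in WT arrays after CpG, the low arrays of the mutant being CpG replicate 3 and unstimulated replicate 2. Beside these, the mean of 8 conventional DC markers was 10.12 to 10.36 in DRKO arrays after CpG and 10.07 to 10.21 in WT arrays after CpG. Such marker means do not give the share of DCs in an isolate. Y-linked genes were high in DRKO CpG replicates 1 and 2 and in DRKO unstimulated replicate 1 and low in the other 7 arrays.

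After CpG, most of the regulatory maturation genes stood above the unstimulated level in both genotypes (plot of levels by array). In DRKO DCs 4 of the 7 measured genes were called higher after CpG (Fscn1, Marcksl1, Cd200 and Samsn1), where 4.54% of all genes tested were called higher. In WT DCs 6 of the 7 were called higher, all but Ido1, where 8.24% of all genes were. A call is an adjusted p under 0.05 in limma's moderated test with Benjamini-Hochberg adjustment over the 13371 genes. The median log2 difference of the 7 genes was 0.85 in DRKO DCs and 1.16 in WT DCs, against -0.04 over all genes in each genotype. In cells sampled in bulk, more RNA per cell and more cells of a maturing kind cannot be told apart. Of the cDC1 markers, 4 of 9 were called lower after CpG in DRKO and 6 of 9 in WT DCs, and of the B cell markers 3 of 11 in DRKO and 6 of 11 in WT DCs, where 5.76% of all genes were called lower in DRKO and 13.3% in WT DCs. Their part in the results was not tested.

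**Figure D1:**
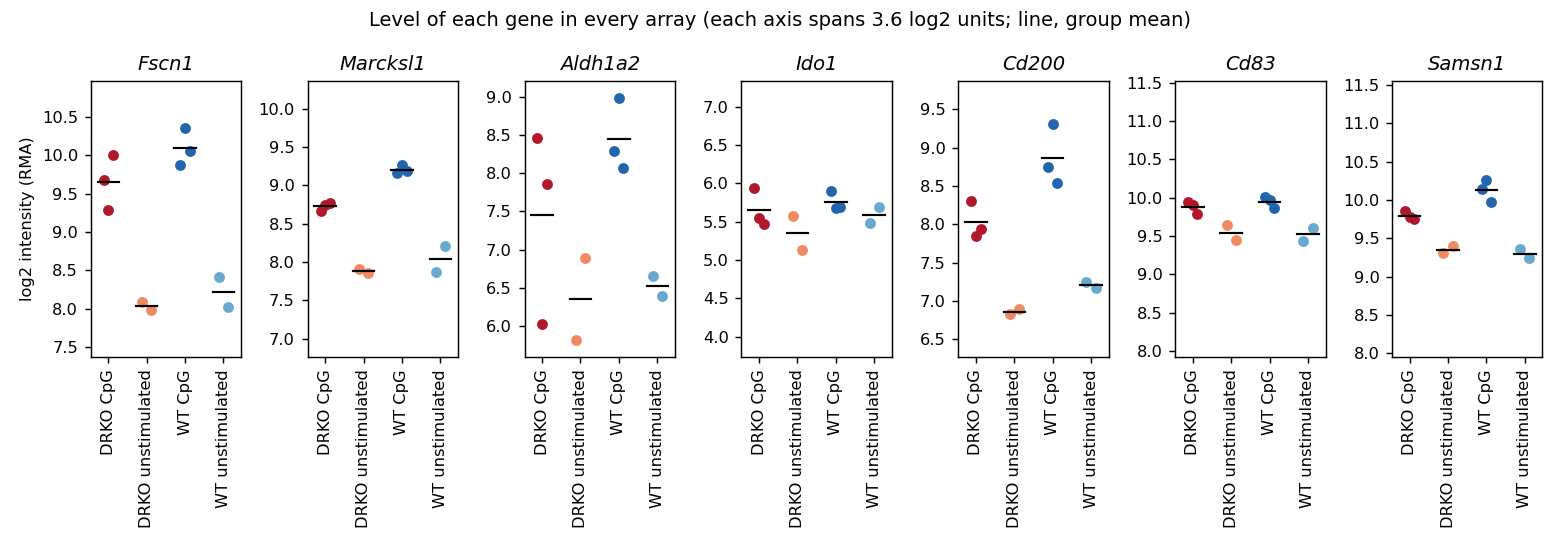
Level of each of the 7 measured genes in every array, as log2 intensity after RMA (vertical axis, 3.6 log2 units in each panel); points are arrays, lines are group means, with CpG groups of 3 arrays and unstimulated groups of 2. For Fscn1, Marcksl1, Cd200, Samsn1 and Cd83 every CpG array lies above every unstimulated array. Within a genotype, 15.2% of all genes were higher after CpG without overlap in DRKO DCs and 21.2% in WT DCs. Ido1 lies near the array median in all groups, and Aldh1a2 spreads widely among DRKO arrays.

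Fscn1, the actin-bundling gene, stood well apart after CpG. It then measured 9.67, 9.29 and 10.003 in DRKO DCs, against 9.88, 10.36 and 10.06 in WT DCs. Without stimulation it measured 8.09 and 7.98 in DRKO DCs, against 8.41 and 8.03 in WT DCs. The CpG and unstimulated arrays were thus far apart in each genotype, while the genotypes overlapped within each condition. The CpG effect on the log2 scale was 1.62 ± 0.21 in DRKO DCs (SE; 3.08-fold; limma adjusted p = 0.00172) and 1.88 ± 0.21 in WT DCs (3.68-fold; adjusted p = 0.00027).

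Marcksl1 followed the same course with a smaller spread. Its levels after CpG were 8.67, 8.75 and 8.77 in DRKO DCs, against 9.16, 9.27 and 9.18 in WT DCs, and the genotypes did not overlap. Its unstimulated levels were 7.91 and 7.85 in DRKO DCs, against 7.87 and 8.21 in WT DCs, and there they overlapped. CpG raised it by 0.85 ± 0.12 in DRKO DCs (1.80-fold; limma adjusted p = 0.00284) and by 1.16 ± 0.12 in WT DCs (2.24-fold; adjusted p = 0.000199). The calls for Fscn1 and Marcksl1 held in both genotypes under all 22 alternative settings, 10 of which left out 1 array each.

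Cd200, the ligand of an inhibitory receptor, had the clearest order of groups. After CpG it measured 8.30, 7.85 and 7.94 in DRKO DCs, against 8.74, 9.31 and 8.55 in WT DCs. In unstimulated DCs it measured 6.82 and 6.89 in DRKO, against 7.25 and 7.16 in WT. All 4 groups were therefore separate, with DRKO below WT in each condition and unstimulated WT arrays below stimulated DRKO arrays. The CpG effect was 1.17 ± 0.21 in DRKO DCs (2.26-fold; limma adjusted p = 0.00775) and 1.66 ± 0.21 in WT DCs (3.16-fold; adjusted p = 0.000483). Without DRKO unstimulated replicate 2 the DRKO effect was 1.21 with an adjusted p of 0.0521.

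Samsn1, the signalling adaptor, rose by less. Its levels after CpG were 9.85, 9.77 and 9.75 in DRKO DCs, against 10.14, 10.26 and 9.97 in WT DCs, again without overlap of the genotypes. Unstimulated levels were 9.31 and 9.39 in DRKO DCs, against 9.36 and 9.24 in WT DCs, which overlapped. The CpG effect was 0.44 ± 0.12 in DRKO DCs (1.36-fold; limma adjusted p = 0.0415) and 0.83 ± 0.12 in WT DCs (1.77-fold; adjusted p = 0.000939). The DRKO call lay close to the threshold: it held in 9 of 22 alternative settings, with adjusted p-values from 0.0304 to 0.165. It was lost when any array other than WT CpG replicates 2 and 3 and DRKO CpG replicate 3 was left out, with effects between 0.40 and 0.48. The WT call held in all 22.

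Cd83, a textbook surface marker of mature DCs, changed by a small step. It measured 9.94, 9.91 and 9.78 after CpG in DRKO DCs, against 10.01, 9.97 and 9.87 in WT DCs. The unstimulated values were 9.65 and 9.44 in DRKO DCs, against 9.43 and 9.61 in WT DCs. Every CpG array lay above every unstimulated array, and the genotypes overlapped in both conditions. The CpG effect of 0.33 ± 0.12 in DRKO DCs was not called (limma adjusted p = 0.11; 95% interval 0.07 to 0.60), and that of 0.43 ± 0.12 in WT DCs was (1.35-fold; adjusted p = 0.0278). The WT call was lost without WT unstimulated replicate 1 (0.34, adjusted p = 0.209) or replicate 2 (0.52, adjusted p = 0.0662), and without WT CpG replicate 1 (0.40, adjusted p = 0.0842) or replicate 2 (0.42, adjusted p = 0.0703).

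Aldh1a2, the retinoic acid enzyme, varied widely among the DRKO arrays. It measured 8.46, 6.03 and 7.86 after CpG in DRKO DCs, against 8.28, 8.98 and 8.06 in WT DCs. Without stimulation it measured 5.82 and 6.90 in DRKO DCs, against 6.65 and 6.39 in WT DCs. DRKO CpG replicate 2 lay within the unstimulated range, and the other 2 DRKO arrays after CpG lay near the WT ones. That array also had the highest mean of 5 plasma cell markers, 8.62, against 7.81 and 7.82 in the other DRKO arrays after CpG. The markers were uneven. Jchain differed most, at 10.76 against 8.31 and 8.66 in those arrays, while Xbp1 measured 9.68 against 9.61 and 9.35. The part of these markers in the Aldh1a2 value was not tested. The CpG effect was 1.09 ± 0.59 in DRKO DCs (limma adjusted p = 0.291; 95% interval -0.22 to 2.40) and 1.92 ± 0.59 in WT DCs (3.79-fold; adjusted p = 0.0413). Without DRKO CpG replicate 2 the DRKO effect was 1.80 with an adjusted p of 0.0221. The WT effect missed the threshold when any of the 5 WT arrays was left out: it was 2.05 (adjusted p = 0.142) without unstimulated replicate 1, 1.79 (adjusted p = 0.199) without unstimulated replicate 2, 2.00 (adjusted p = 0.0825) without CpG replicate 1, 1.65 (adjusted p = 0.121) without CpG replicate 2 and 2.11 (adjusted p = 0.0558) without CpG replicate 3.

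Ido1, which makes the first product of the kynurenine route, stayed near the array median. It measured 5.95, 5.55 and 5.47 after CpG in DRKO DCs, against 5.90, 5.68 and 5.70 in WT DCs. Unstimulated levels were 5.57 and 5.13 in DRKO DCs, against 5.48 and 5.69 in WT DCs. CpG and unstimulated arrays overlapped in each genotype, and the genotypes overlapped in each condition. The CpG effect was 0.31 ± 0.18 in DRKO DCs (limma adjusted p = 0.331; 95% interval -0.09 to 0.70) and 0.17 ± 0.18 in WT DCs (adjusted p = 0.565; 95% interval -0.22 to 0.57). At a signal this close to the array median, which it exceeded in 7 of 10 arrays, a change of Ido1 may not have been detectable.

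The distribution of effects is shown in the plot of CpG effects, and no pattern of calls there by itself compares the genotypes. Groups of CpG and unstimulated arrays did not overlap for 5 of the 7 genes in DRKO DCs and for 6 of 7 in WT DCs, all of them higher after CpG. Over all genes tested, 15.2% were higher without overlap in DRKO DCs and 21.2% in WT DCs. Within the 7 arrays whose titles are numbered under 20, the CpG effect in WT DCs was 1.90 for Fscn1, 1.18 for Marcksl1, 1.82 for Cd200, 0.90 for Samsn1, 0.47 for Cd83, 2.11 for Aldh1a2 and 0.20 for Ido1, and the same 6 genes were called. In DRKO DCs it was 1.39 for Fscn1, 0.80 for Marcksl1, 1.25 for Cd200 and 0.50 for Samsn1, and the first 3 of these were called (Samsn1 had an adjusted p of 0.0823). The later titles held 1 array each of 3 groups and gave no test of their own.

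**Figure D2:**
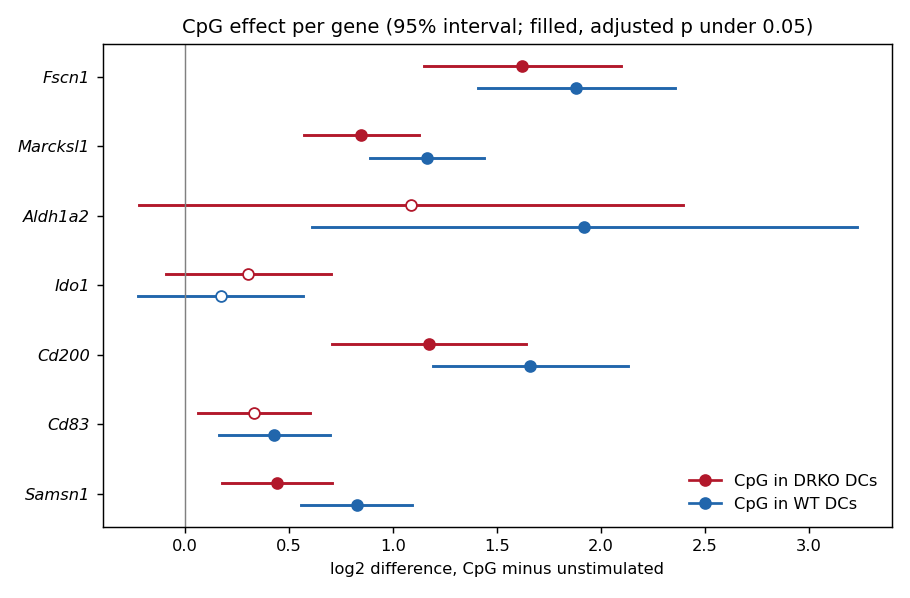
CpG minus unstimulated log2 difference of each measured gene (horizontal axis) in DRKO (upper) and WT DCs (lower); points are limma estimates, lines their 95% intervals, and filled points have an adjusted p under 0.05. Fscn1 has intervals clear of 0 in both genotypes, and Ido1 has intervals that include 0 in both.

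The promoters of the 4 genes called higher in both genotypes are shown because these genes moved together. The sequences are RefSeq's, from assembly GRCm38.p6, on the gene's strand from 250 bases before the start to 50 after it, 5′ to 3′. Capitals mark matches, on either strand, to the kB consensus, the interferon regulatory factor core AANNGAAA, the AP-1 site TGACTCA, the cAMP response element TGACGTCA and the TATA box TATAAA; the last 2 motifs were added to the search after the sequences had been seen. Fscn1 lies at chr5:142960105-142960404 (+), Marcksl1 at chr4:129513331-129513630 (+), Cd200 at chr16:45409004-45409303 (-) and Samsn1 at chr16:75909217-75909516 (-).
Fscn1: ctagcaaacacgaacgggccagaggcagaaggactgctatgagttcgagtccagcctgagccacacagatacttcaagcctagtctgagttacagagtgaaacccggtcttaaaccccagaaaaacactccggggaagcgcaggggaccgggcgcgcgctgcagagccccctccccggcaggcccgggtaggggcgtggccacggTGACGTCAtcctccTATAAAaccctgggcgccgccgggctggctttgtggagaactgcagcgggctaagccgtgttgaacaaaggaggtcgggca
Marcksl1: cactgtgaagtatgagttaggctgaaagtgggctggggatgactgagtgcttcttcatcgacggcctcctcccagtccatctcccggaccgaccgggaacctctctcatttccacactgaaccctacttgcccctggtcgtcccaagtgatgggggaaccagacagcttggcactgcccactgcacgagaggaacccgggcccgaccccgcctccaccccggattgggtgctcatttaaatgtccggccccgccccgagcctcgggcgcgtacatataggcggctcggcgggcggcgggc
Cd200: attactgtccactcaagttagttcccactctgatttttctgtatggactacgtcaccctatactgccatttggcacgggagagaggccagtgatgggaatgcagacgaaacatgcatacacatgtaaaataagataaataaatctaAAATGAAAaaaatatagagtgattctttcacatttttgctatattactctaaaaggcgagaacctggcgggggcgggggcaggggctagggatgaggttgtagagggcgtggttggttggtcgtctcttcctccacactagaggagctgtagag
Samsn1: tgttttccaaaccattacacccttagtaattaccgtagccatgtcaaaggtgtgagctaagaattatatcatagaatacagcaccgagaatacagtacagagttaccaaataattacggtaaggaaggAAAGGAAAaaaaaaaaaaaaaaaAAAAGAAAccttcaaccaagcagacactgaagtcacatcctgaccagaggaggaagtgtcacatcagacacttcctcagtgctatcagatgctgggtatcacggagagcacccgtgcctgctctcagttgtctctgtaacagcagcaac
The Fscn1 promoter held TGACGTCA 45 bases before the start, with TATAAA 31 bases before it. TGACGTCA occurred in 1.79% of the 32851 promoters of the table and TATAAA in 13.6%. The Cd200 promoter held AAATGAAA 104 bases before the start. In the Samsn1 promoter AAAGGAAA lay 122 and AAAAGAAA 99 bases before the start, at the ends of a run of A. The core AANNGAAA was present in 23.9% of all promoters. The kB consensus, found in 4.51% of promoters, and TGACTCA, found in 5.2%, were in none of these windows, and the Marcksl1 window matched no motif. Of the 8 genes, 6 had a promoter in the table; those of Il4i1 and Aldh1a2 also matched none.

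Between genotypes after CpG, all 7 measured genes were lower in DRKO than in WT DCs, and none of the differences was called. At an unadjusted p under 0.05, 4 genes were lower in DRKO DCs (Cd200, Marcksl1, Samsn1 and Fscn1), while 0.12% of all genes were called in limma's test and 5.83% were lower at that unadjusted p. The median difference of the 7 was -0.45, against 0.01 over all genes, of which 47.2% were lower in DRKO DCs. Cd200 was lower by 0.84 on average, at 8.03 ± 0.24 in DRKO and 8.87 ± 0.40 in WT DCs (SD, n = 3 each); the log2 difference was -0.84 ± 0.19 (95% interval -1.25 to -0.42; 1.79-fold lower; limma adjusted p = 0.0883). Marcksl1 differed by -0.47 ± 0.11 (-0.72 to -0.23; 1.39-fold lower; limma adjusted p = 0.0927). Samsn1 differed by -0.33 ± 0.11 (-0.57 to -0.10; adjusted p = 0.195). The 3 DRKO arrays lay below the 3 WT arrays for these 3 genes, and 7.58% of all genes were lower in DRKO DCs without overlap.

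The other 4 genes overlapped between genotypes after CpG. Fscn1 differed by -0.45 ± 0.19 (95% interval -0.87 to -0.02; limma adjusted p = 0.323). Aldh1a2 had the widest interval, with a difference of -0.996 ± 0.53 (-2.17 to 0.17; adjusted p = 0.431), which was -0.29 without DRKO CpG replicate 2. Ido1 differed by -0.10 ± 0.16 (-0.46 to 0.25) and Cd83 by -0.07 ± 0.11 (-0.31 to 0.17), with adjusted p-values of 0.836 and 0.83. The intervals of Aldh1a2, Ido1 and Cd83 leave room for either sign, while that of Fscn1 ends just below 0.

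Cd200 came past the threshold in 3 of 22 alternative settings: with the title series as a block (-0.84, limma adjusted p = 0.0418), with the Y-linked signal as a covariate (-0.87, adjusted p = 0.0487) and without DRKO CpG replicate 1 (-0.97, adjusted p = 0.0453). With the mean of the neutrophil markers as a covariate its difference was -0.48 (adjusted p = 0.503). That marker list moved with genotype: the median difference of its 13 genes after CpG was -1.74, with 8 at an unadjusted p under 0.05 and none called. Marcksl1 under the same covariate differed by -0.43 (adjusted p = 0.377) and was called in no setting. Within titles numbered under 20 the differences were -0.95 for Cd200, -0.51 for Marcksl1, -0.39 for Samsn1, -0.64 for Fscn1 and -1.39 for Aldh1a2, and none was called. In that subset every DRKO array had a high Y-linked signal and every WT array a low one. Genotype and the sex of the mice therefore cannot be told apart there. Among DRKO arrays, the Y-linked signal and the title series made the same split, so these settings are not separate checks of the mutant arrays.

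**Figure D3:**
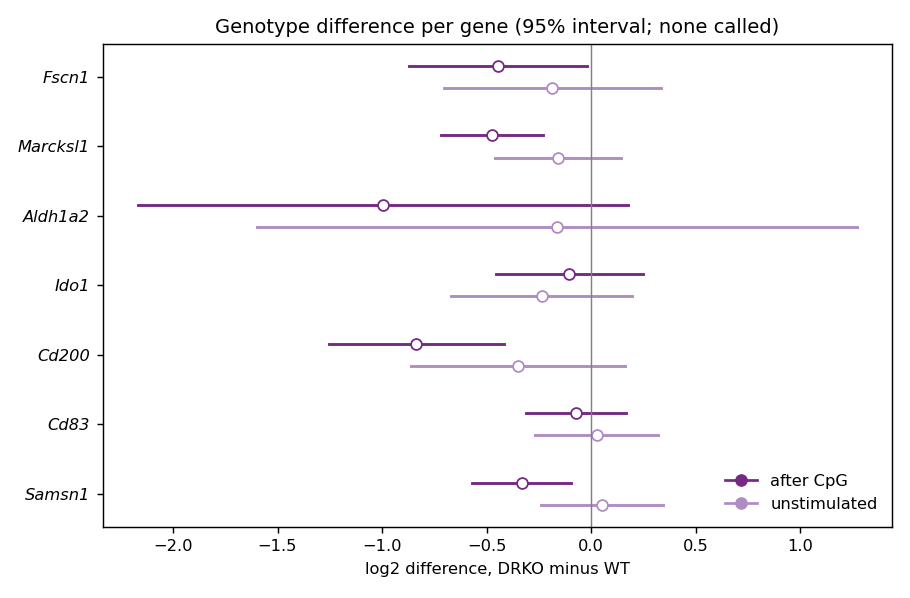
DRKO minus WT log2 difference of each measured gene (horizontal axis) after CpG (upper, dark) and without stimulation (lower, light); points are limma estimates, lines their 95% intervals, and no gene passed an adjusted p of 0.05. After CpG all 7 points lie below 0, and the intervals of Cd200, Marcksl1, Samsn1 and Fscn1 end below 0.

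Without stimulation no measured gene set the genotypes apart by the test. None of the 7 genes was called or reached an unadjusted p under 0.05 in limma's test, in a comparison where 0.00748% of all genes were called and 619 genes reached that unadjusted p. Of the 7, 5 were lower in DRKO DCs, and the median difference was -0.16. Cd200 differed by -0.35 ± 0.23 (95% interval -0.86 to 0.16; adjusted p = 0.992) and was the only one of the 7 whose DRKO arrays both lay below both WT arrays, as 15.9% of all genes did. With the neutrophil markers as a covariate its difference was -0.0044. The remaining differences ran from -0.24 for Ido1 to 0.05 for Samsn1.

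The CpG effect itself was set between the genotypes by the difference of the 2 effects. The DRKO effect amounted to 86.2% of the WT effect for Fscn1, 72.9% for Marcksl1, 70.7% for Cd200, 77.4% for Cd83, 56.7% for Aldh1a2 and 53.6% for Samsn1, on the log2 scale. The Aldh1a2 value rested on single arrays: it was 93.6% without DRKO CpG replicate 2, 30.4% without DRKO CpG replicate 1 and 28.7% without DRKO unstimulated replicate 1. For Ido1 the effect was 0.31 in DRKO and 0.17 in WT DCs, and neither was called. None of the 7 differences of effects was called in limma's test, where 0.00748% of all genes were called, and 1, that of Samsn1, had an unadjusted p under 0.05, as had 756 of all genes. Samsn1's was -0.38 ± 0.17 (95% interval -0.76 to -0.01; limma adjusted p = 0.872). For Cd200 it was -0.49 ± 0.30 (-1.15 to 0.17; adjusted p = 0.925) and for Marcksl1 -0.32 ± 0.18 (-0.70 to 0.07; adjusted p = 0.905). A smaller response of these genes in DRKO DCs was therefore not shown at this number of arrays.

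How closely the genes moved with each other was read within the 6 CpG arrays, 3 of each genotype. Cd200 and Samsn1 ran nearly in parallel there, with Pearson's r = 0.98, and Marcksl1 joined them with r = 0.89 to Samsn1 and 0.85 to Cd200. Fscn1 went with Aldh1a2 at r = 0.83. Cd83 and Ido1 had r = 0.73 to each other and lay near 0 against Fscn1. The genes did not fall into separate sets: Cd83 had r = 0.71 to Samsn1 and 0.62 to Cd200, and Fscn1 had 0.76 to Cd200 and 0.73 to Marcksl1. These values are descriptions over 6 arrays that share their genotype in sets of 3. Cd200, Samsn1 and Marcksl1 were the genes without overlap of the genotypes after CpG, so the genotype difference enters their r. Among the DRKO arrays Marcksl1 was lowest in CpG replicate 1 (8.67), where Cd200 (8.30) and Samsn1 (9.85) were highest. Among the WT arrays each of these genes was highest in CpG replicate 2.

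Over all 10 arrays, which fall into stimulated and unstimulated sets, each gene was most like the following genes by Pearson's r. Predicted genes, clone names, small RNAs and immunoglobulin or T cell receptor segments were left out of this ranking. Fscn1 was most like Fabp5, Ccnd2 and Relb (r = 0.98 each). Marcksl1 was closest to Bmt2 and Fnbp1l (0.99 each) and to Clec2d (0.98). Cd200 went with the TNF ligand gene Cd70 (0.99) and with the TNF receptor genes Tnfrsf9 and Fas (0.98 each). Samsn1 went with Ikzf4, Fam89a and Acsl5 (0.98 to 0.99). Cd83 was closest to Sh3bp4 (0.98), Krt222 and Furin (0.97 each). Aldh1a2 was closest to Scn3a (0.98), and then to Fdft1 and Chst14 (0.96 each). For Ido1 the closest genes were Fuom (0.96), Bambi-ps1 (0.95) and Ncr1 (0.93), the last an NK cell marker.

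Other genes of the mature regulatory DC programme were also mostly higher after CpG. Of 42 listed, 41 were tested, and 28 were called higher after CpG in DRKO DCs and 32 in WT DCs, with none called lower in either. Over all genes, 4.54% were called higher in DRKO DCs and 8.24% in WT DCs. The list was chosen with earlier results of these data known, so its counts, here and between genotypes, are descriptions only. Their median CpG effect was 0.75 in DRKO and 0.92 in WT DCs. Among them, Cd274, the checkpoint ligand PD-L1, rose by 1.23 ± 0.12 in DRKO DCs (limma adjusted p = 0.000347) and by 1.34 ± 0.12 in WT DCs (adjusted p = 7.54e-05). Pdcd1lg2, which encodes its relative PD-L2, rose by 1.09 ± 0.16 in DRKO DCs (adjusted p = 0.00282) and by 2.44 ± 0.16 in WT DCs (adjusted p = 3.46e-05). The list was not confined to inhibitory genes. Cd40, a costimulatory gene, rose by 2.24 ± 0.22 in DRKO DCs (limma adjusted p = 0.00037) and by 2.59 ± 0.22 in WT DCs (adjusted p = 7.54e-05). Il12b rose by 2.87 ± 0.32 in DRKO DCs (limma adjusted p = 0.000772) and by 2.60 ± 0.32 in WT DCs (adjusted p = 0.000363). Fitted on the DRKO arrays alone, 17 of the 41 were called in DRKO DCs.

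After CpG, 40 of these 41 genes were lower in DRKO than in WT DCs, the exception being Il4ra, while 47.2% of all genes were lower. At an unadjusted p under 0.05, 21 were lower, as were 5.83% of all genes. None was called in limma's test, and the median difference was -0.28. The lowest p among them belonged to Nudt17, at -0.91 ± 0.16 (adjusted p = 0.0611), followed by Tnfrsf9 at -0.86 ± 0.17 (adjusted p = 0.0694). The count below 0 was 33 of 41 with the neutrophil markers as a covariate and 39 or 40 whichever array was left out. Without stimulation 30 of the 41 were lower in DRKO DCs, as were 48.1% of all genes. The CpG effect of 31 was lower in DRKO than in WT DCs, as was that of 47.2% of all genes. At an unadjusted p under 0.05 there were 3 of the 41 without stimulation and 8 for the difference of effects, and none was called in limma's test. Over all genes these shares were 4.63% without stimulation and 5.65% for the difference of effects.

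The actin and cell movement genes, the company of Fscn1 and Marcksl1, were mostly not called. Of 28 tested, 3 were called higher and 2 lower after CpG in DRKO DCs, and 3 higher and 5 lower in WT DCs, with medians of -0.08 in DRKO and -0.02 in WT DCs. Over all genes, 4.54% were called higher and 5.76% lower in DRKO DCs, and 8.24% higher and 13.3% lower in WT DCs, which is the background for the counts of this and the following lists. Cnn3, an actin-binding calponin, rose by 1.01 ± 0.22 in DRKO DCs (limma adjusted p = 0.0188) and by 1.80 ± 0.22 in WT DCs (adjusted p = 0.000412). Was, which activates actin branching in blood cells, fell by 0.60 on the log2 scale in DRKO DCs (adjusted p = 0.0259) and by 1.03 in WT DCs (adjusted p = 0.000802). The DRKO calls of this list rested on few arrays: none was left without DRKO unstimulated replicate 2, and Cnn3 then had an effect of 0.79 (adjusted p = 0.148) and Was one of -0.68 (adjusted p = 0.0815). Without DRKO CpG replicate 1 the adjusted p was 0.0566 for Cnn3 and 0.0691 for Was, and without DRKO unstimulated replicate 1 it was 0.136 for Was. In WT DCs both genes held in all 22 settings, and the 5 called lower became 1 without WT unstimulated replicate 2, 2 without WT unstimulated replicate 1, WT CpG replicate 1 or WT CpG replicate 3, and 3 without WT CpG replicate 2. The 3 called higher in WT DCs became 1 without WT unstimulated replicate 1.

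Around Ido1, the tryptophan and kynurenine list split both ways. Of 16 genes tested, 2 were called higher and 1 lower after CpG in DRKO DCs, and 3 each way in WT DCs. Haao, a late enzyme of the kynurenine route, fell by 1.28 on the log2 scale in WT DCs (limma adjusted p = 0.001), while Kmo, an earlier enzyme, rose by 0.92 ± 0.16 (adjusted p = 0.00311) and Slc7a5, a transporter of large neutral amino acids, by 1.05 ± 0.16 (adjusted p = 0.00127). In DRKO DCs Haao fell by 0.87 (adjusted p = 0.0165) and Slc7a5 rose by 0.72 ± 0.16 (adjusted p = 0.02). The DRKO values were -0.86 (adjusted p = 0.0969) and 0.41 (adjusted p = 0.135) without DRKO unstimulated replicate 2, and -0.74 (adjusted p = 0.0529) and 0.69 (adjusted p = 0.0615) without DRKO CpG replicate 1. Haao also missed the threshold without DRKO unstimulated replicate 1 (adjusted p = 0.0705), as Slc7a5 did without DRKO CpG replicate 2 (adjusted p = 0.0516). With an array left out, the list had 0 to 2 genes called each way in DRKO DCs, the 0 in both directions falling to DRKO CpG replicate 1 and DRKO unstimulated replicate 2. In WT DCs the 3 called lower became 1 without WT unstimulated replicate 2.

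Around Aldh1a2, none of 16 genes of retinoic acid synthesis, binding and reception was called in DRKO DCs in limma's test (1 had an unadjusted p under 0.05), and 1 was called higher and 2 lower in WT DCs. Crabp2, which carries retinoic acid to its receptors, rose by 1.46 ± 0.20 in WT DCs (limma adjusted p = 0.000749), and Dhrs7, a short-chain dehydrogenase, fell by 1.12 (adjusted p = 0.000878). Both held in all 22 settings. The WT count of falls was 1 without WT unstimulated replicate 1 or 2 or WT CpG replicate 1, and the count of rises was 2 without WT CpG replicate 3 or DRKO CpG replicate 3.

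Of 14 inhibitory ligands and receptors tested beside Cd200, 3 were called higher and 2 lower after CpG in DRKO DCs, and 5 higher and 2 lower in WT DCs. Btla, an inhibitory receptor, rose by 0.92 ± 0.14 in DRKO DCs (limma adjusted p = 0.00384) and by 1.12 ± 0.14 in WT DCs (adjusted p = 0.000484), and both calls held in all 22 settings. Pvr, a ligand of Tigit, rose by 1.41 ± 0.20 in DRKO DCs (limma adjusted p = 0.0026) and by 1.02 ± 0.20 in WT DCs (adjusted p = 0.0054). Havcr2, another inhibitory receptor, had a log2 difference of -0.98 in DRKO DCs (limma adjusted p = 0.0434) and fell by 1.57 in WT DCs (adjusted p = 0.0025). The WT count of rises was 2 without WT unstimulated replicate 1 and 3 without WT unstimulated replicate 2; the DRKO count of falls ranged from 0 to 2 with an array left out, being 0 without DRKO CpG replicate 1.

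In the list around Samsn1 and Cd83, every gene called after CpG was lower. Of 10 SLY adaptor relatives, MARCH ligases and MHC class II genes tested, 2 were called lower in DRKO DCs (Sash3 and Ciita), where 5.76% of all genes were. In WT DCs 4 were called lower (Sash3, Ciita, H2-DMa and Sash1), where 13.3% of all genes were. None was called higher. The MHC class II genes H2-Aa, H2-Ab1 and H2-Eb1 and the ligase genes Marchf1 and Marchf8 were called in neither genotype. Sash3, an adaptor of the same SLY family as Samsn1, fell by 0.71 in DRKO DCs (limma adjusted p = 0.0102) and by 0.76 in WT DCs (adjusted p = 0.00318). Its DRKO adjusted p was 0.06 without DRKO unstimulated replicate 1 and 0.0558 without DRKO unstimulated replicate 2, and no gene of the list was then called in DRKO DCs. The 2 became 1 without DRKO CpG replicate 1 or 2. In WT DCs the 4 became 2 without WT unstimulated replicate 1 and 1 without WT unstimulated replicate 2. No gene of these 5 lists was called in any comparison of genotypes in limma's test, where of 84 genes 16 had an unadjusted p under 0.05 after CpG, 9 without stimulation and 5 for the difference of effects. Over all genes these shares were 14.3% after CpG, 4.63% without stimulation and 5.65% for the difference of effects. The plot of CpG effects by list sets them beside the measured genes.

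**Figure D4:**
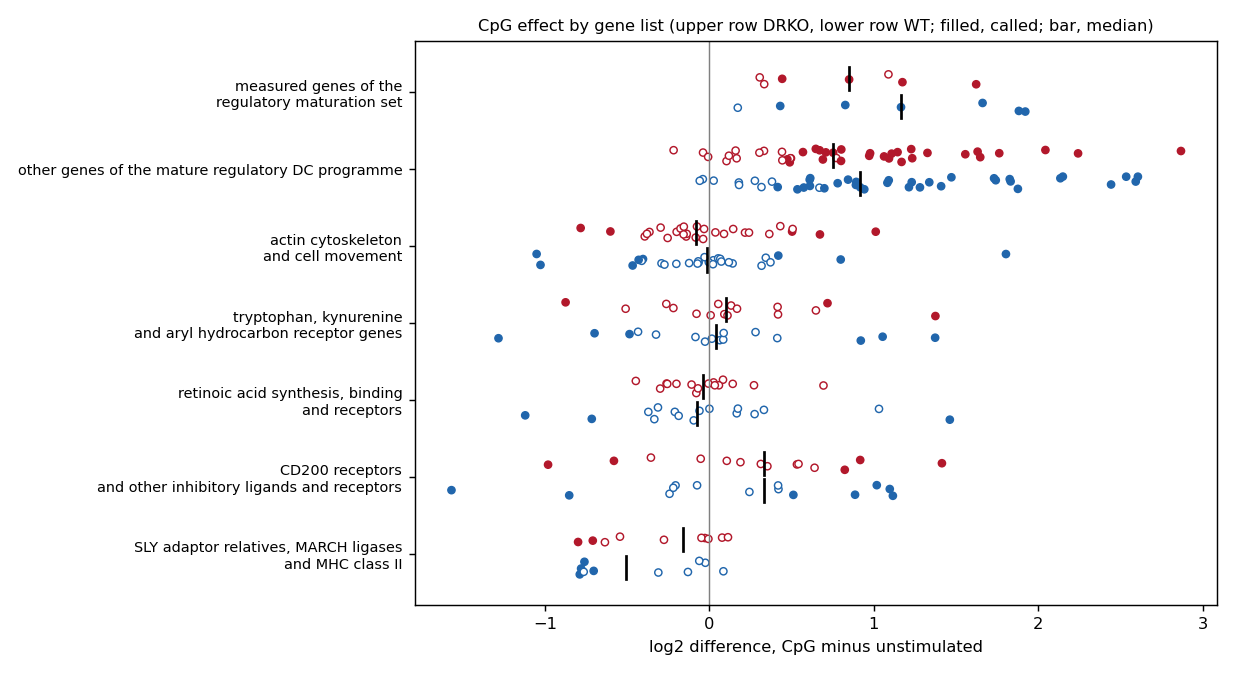
CpG minus unstimulated log2 difference (horizontal axis) of every tested gene in the measured set and the 6 lists, with DRKO DCs in the upper and WT DCs in the lower row of each list; filled points were called and bars are medians. The programme list sits mostly to the right of 0, with 28 of 41 genes called higher in DRKO and 32 of 41 in WT DCs, against 4.54% and 8.24% of all genes. The inhibitory list has a median of 0.33 in each genotype. The list of SLY adaptor relatives, MARCH ligases and MHC class II genes has medians of -0.16 in DRKO and -0.51 in WT DCs. The remaining lists straddle 0.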

How the data were processed

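Values are the authors' log2 intensities of probe sets, deposited after RMA; the submitters' processing notes name RMA and Affymetrix Expression Console. Versions, genome build and whether all arrays were normalized together were not given in the sources used here. RMA corrects background, normalizes arrays to a common distribution and summarises probes, so small differences of dim genes are compressed. Of 41345 probe sets, 23521 had 1 gene symbol. The probe set with the highest mean stood for a gene, and genes above the array median in at least 2 of 10 arrays were tested. limma 3.58.1 (R 4.3.3; lmFit, eBayes) was fitted with 4 group means to all arrays, for 5 comparisons, two-sided, with Benjamini-Hochberg adjustment over 13371 genes; ± is the standard error unless marked SD. The steps were tested on simulated data. The genes and lists were chosen with earlier results of these data known. Named list genes are among the up to 4 called genes with the smallest p per list and CpG comparison. Nudt17, Tnfrsf9, Il4ra and the uncalled MHC class II and MARCH genes were named after their values were seen. No pair of arrays was a duplicate. An amplification kit is tied to a first batch that the labels assign to no sample, so title numbers (under 20 or later) stood in for it. The number of arrays limits the precision.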

Additional observations from a re-analysis of the deposited data

Results flagged for a closer look

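A signal was present in data that no comparison above used: the probe set whose 3 symbols include Il4i1. It stood higher after CpG than without stimulation, by 0.5189 in DRKO DCs and by 0.8228 in WT DCs (differences of means on the log2 scale, not tested). After CpG it measured 8.56, 8.56 and 8.90 in DRKO DCs, against 8.90, 9.12 and 8.88 in WT DCs, and without stimulation 8.25 and 8.06 in DRKO DCs, against 8.26 and 8.03 in WT DCs. Every CpG array lay above every unstimulated array. The signal cannot be assigned to Il4i1, Il4i1b or the nuclear pore gene Nup62. Groups of 2 or 3 arrays were too small for an outlier test that needs at least 4, so that test was not run. No difference of CpG effects between genotypes was called for a measured gene.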

How the results depend on the processing

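No paired analysis was possible because the titles give no shared replicate numbers. Over 12 other settings and 10 fits that each left out 1 array, the CpG effects of the 7 genes kept their direction (Ido1 was not tested under the stricter filter). The genes called between genotypes after CpG, 16 in the main model, depended on the setting: 76 with trend and robust, 3 with only the groups compared, 125 with array weights, 296 with the title series as a block, 90 with titles under 20, 800 with the Y-linked signal, 9 with the neutrophil markers and 115 with the splenic macrophage markers (added after seeing the data) as a covariate. The count of measured genes called, 0, was 1 with the title block and 1 with the Y-linked signal, Cd200 in each. Leaving out an array gave 2 to 267 genes and 0 to 1 measured genes there, 1277 to 3226 genes for CpG in WT, and 423 to 1909 genes and 2 to 4 measured genes for CpG in DRKO, the 2 without DRKO unstimulated replicate 2. Only the groups compared gave 402 genes for CpG in DRKO. For unstimulated DRKO against WT, 1 gene was called, against 12 with only the groups compared, 2 with the title block, 23 with titles under 20, 407 with the Y-linked signal, 6 with the macrophage markers and 1 to 2 with an array left out. For the difference of effects, 1 gene was called, against 0 with the stricter filter, 0 with quantile normalization, 0 with the title block, 0 with the neutrophil markers, 2 with titles under 20 and 0 to 1 with an array left out. Signs turned for uncalled differences only: after CpG, Ido1 to 0.15 and Cd83 to 0.10 with the neutrophil markers; unstimulated, Aldh1a2 to 0.22 and Cd83 to -0.0645 with the Y-linked signal and Ido1 to 0.0113 with the neutrophil markers; and the difference of effects of Ido1 to -0.0246 with titles under 20. With an array left out, unstimulated differences ran from -0.38 to 0.0071 for Fscn1, -0.70 to 0.37 for Aldh1a2, -0.078 to 0.13 for Cd83, -0.33 to 0.0108 for Marcksl1 and -0.0105 to 0.11 for Samsn1, and differences of effects from -0.0874 to 0.35 for Ido1 and -0.20 to 0.0062 for Cd83. Aldh1a2 in WT also missed the threshold with trend and robust (adjusted p = 0.104), without the filter (0.0533) and with the neutrophil markers (0.0618), and Cd83 in WT with quantile normalization (0.0567) and the neutrophil markers (0.0588). Causes were not tested. A group left with 1 array was assumed to vary like the others.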
